A study of Homo sapiens with 24 samples.

Results

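The genes described here are 49 RNA-binding proteins of pre-mRNA splicing: 7 that recognise the 3′ splice site and branch point, 13 SR and SR-like proteins, 17 hnRNPs, 3 PTB proteins, 8 other splicing regulators, and ELAVL1. They were chosen by symbol from the deposited table of estimated counts, in which they take 50 rows of 58870, since MATR3 has 2 rows. All 49 passed the low-count filter in every comparison, with mean levels from 42.5 CPM for PTBP2 to 2520 CPM for HNRNPA2B1 and a median of 312 CPM. CPM is the count of a gene scaled to the size of its library after TMM normalisation.

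Polyadenylated RNA was sequenced from 24 cultures of SK-HEP-1, a cell line derived from a human liver cancer. All cultures were CRISPRi lines, in which an inactive Cas9 with a repressor silences the promoter that a guide RNA addresses. The 2 control lines carried non-targeting guides (NTC1 and NTC2), and the 4 PURPL guide lines carried guides 2, 4, 5 or 6 against PURPL, a p53-induced long noncoding RNA (sg2, sg4, sg5 and sg6). Each line received Nutlin-3a at 10 µM, which frees p53 from MDM2, or the vehicle DMSO for 6 h, with 2 harvests per line and treatment that are numbered 1 and 3 and labelled as biological replicates. The labels do not say whether a line is 1 clone or a pool. The p-values of the Nutlin-3a comparisons therefore rest on the spread between harvests, and those of the guide comparisons on the spread between lines.

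Splicing removes introns from pre-mRNA on the spliceosome. SF1, the U2AF heterodimer and the SF3A and SF3B complexes mark the branch point and the 3′ splice site, SR proteins bind exonic enhancers and promote inclusion of exons, and hnRNPs and PTB proteins often bind silencers and oppose it. Many of these genes hold exons or introns whose inclusion sends the transcript to nonsense-mediated decay, by which the proteins limit their own level. ELAVL1 (HuR) binds AU-rich elements and stabilises many mRNAs of growth and stress, among them the p53 message. The values below are gene totals and say nothing of isoforms, exon inclusion or protein.

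One library stood apart before any comparison. In sg2 under Nutlin-3a, harvest 1, expression relative to the median of all 24 libraries rose with the GC content of the gene. The slope was 1.54 log2 units per 10 points of GC, against -0.22 to 0.35 in the other 23. The median correlation of this sg2 library with the other libraries of its treatment was 0.912, against 0.987 to 0.994. Compared with its sister harvest, 35 of 49 members were lower in it, with a median difference of -0.47 on the log2 scale against -0.00 for all genes tested, and the extremes were U2AF1 at -3.87 and U2AF2 at 2.54. The results below rest on the other 23 libraries, and the counts with all 24 stand beside them. Library totals ran from 66.4 M to 92.1 M counts, with a median of 74.2 M. The labels call these endothelial cells, but 9 of 10 endothelial markers stayed below 1 CPM, PECAM1 reached at most 0.0276 CPM and ERG was at 0, with ENG the exception at group means of 23.8 to 30.2 CPM. Of 8 hepatocyte markers 6 stayed below 1 CPM, whereas the group means of VIM, a mesenchymal filament, lay between 3834 and 4096 CPM and those of the epithelial keratins KRT8 and KRT18 between 589.7 and 744 and between 1226 and 1359 CPM. The treatment acted as labelled, since in the NTC lines CDKN1A rose by 3.55 ± 0.10 and MDM2 by 3.18 ± 0.10 (log2, SE) with adjusted p-values of 8.65e-13 and 1.78e-12 from edgeR. PURPL was lower in the PURPL guide lines than in the NTC lines, with log2 differences of -3.92 ± 0.29 in DMSO and -4.06 ± 0.17 in Nutlin-3a (SE; edgeR, adjusted p = 0.0127 and 4.88e-05).

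Under DMSO, levels per kilobase of the longest principal transcript spanned a wide range. By this length HNRNPC, which coats nascent uridine-rich RNA, was highest at 787 ± 17.9 CPM per kb (SD over the 12 DMSO libraries), followed by HNRNPA2B1 at 736 ± 15.6, HNRNPA1 at 569.9 ± 22.2, SRSF1 at 536 ± 49.98 and HNRNPK at 499 ± 17.1 CPM per kb. HNRNPC and HNRNPA2B1 overlapped in their libraries, as did HNRNPA1 with SRSF1 and SRSF1 with HNRNPK, whereas every library of HNRNPA2B1 lay above every library of HNRNPA1. At the low end stood SRSF8 at 10.8 ± 0.436, PTBP2, the neuronal PTB protein, at 15.2 ± 1.18, MBNL2 at 16.3 ± 2.89, QKI at 22.8 ± 2.25 and ELAVL1 at 25.5 ± 1.46 CPM per kb. ELAVL1 was thus 45th of 49 by this measure, and its libraries overlapped those of QKI. The order, first place and the rank of ELAVL1 included, depends on the length taken for a gene, and another length gives another order.

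Nutlin-3a lowered a large share of these genes in the NTC lines and raised few. By edgeR's quasi-likelihood test with Benjamini-Hochberg adjustment over 16697 genes, 19 of 49 members fell, 2 rose and 28 did not pass. Over all genes tested, 15.9% fell and 8.88% rose. Over the 4566 genes at least as high as the lowest member, 24.3% fell and 9.11% rose. The members' median change was -0.10 on the log2 scale and that of all genes -0.06. Another scaling, RLE size factors, moved the share of rises among all calls from 35.8% to 49.4%, and 14 members then fell and 2 rose. Over all genes 1903 then fell and 1859 rose. With all 24 libraries 5 members fell and none rose, and over all genes 659 fell and 685 rose in place of 2655 and 1482. The 5 were SRSF2, SRSF4, SRSF7, HNRNPA0 and HNRNPF. Every Nutlin-3a library lay below every DMSO library for 18 members and 14.9% of all genes, and above for 2 members and 9.53% of genes. Genes at least as high as the lowest member were not counted apart for this pattern. In bulk RNA, fewer cells that express a gene and less of its RNA per cell cannot be told apart. Measures of RNA composition moved with the treatment as well. Mitochondrial RNA took 0.81% to 0.927% of the counts in the NTC libraries under DMSO and 1.10% to 1.47% under Nutlin-3a, and 0.855% to 1.08% and 1.11% to 1.33% in the PURPL guide lines. Of 2 transcripts kept in the nucleus NEAT1 rose, by 1.37 in the NTC lines and 1.24 in the PURPL guide lines, and MALAT1 passed in neither (0.22 and -0.04). With 8 mitochondrial transcripts these make 10, of which 7 rose in the NTC lines and 6 in the PURPL guide lines. Their sum ran from 5971 to 6856 CPM under DMSO and from 8109 to 11334 CPM under Nutlin-3a in the NTC lines, and from 6492 to 8261 and from 8149.9 to 10123 CPM in the PURPL guide lines, and their part in the falls of the splicing genes was not tested. Of 7 fibroblast and mural markers 2 rose in the NTC lines and 3 in the PURPL guide lines, with ACTA2 at 1.05 and 1.22 and RGS5 at 0.36 and 0.29. In the PURPL guide lines 2 of 6 epithelial markers, KRT8 (0.31) and KRT19 (0.55), 1 of 6 leukocyte markers, CD68 (0.30), and 1 of 8 hepatocyte markers, SERPINA1 (0.34), rose as well. The part of these markers was not tested either.

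The SR and SR-like proteins held the most calls: 9 of 13 fell, 1 rose and 3 did not pass, and the median change was -0.23. SRSF4 (ENSG00000116350.17, chr1:29147743-29181987, minus strand), an SR protein that binds purine-rich enhancers, gave 88.7, 97.5, 89.4 and 93.4 CPM in the 4 NTC libraries under DMSO and 66.8, 62.6, 63.9 and 64.3 CPM under Nutlin-3a (harvests 1 and 3 of NTC1, then of NTC2). The groups did not overlap, and the change was -0.52 ± 0.047 (SE; adjusted p = 4.88e-07) on the log2 scale. SRSF2 (SC35), which marks nuclear speckles and acts in both constitutive and regulated splicing, fell from 339.7, 422, 355 and 411 CPM to 254, 284, 255 and 262 CPM, a change of -0.53 ± 0.091 (SE; adjusted p = 0.000338). SRSF4 and SRSF2 kept their call in all 20 alternative analyses. SRSF10, a splicing repressor when dephosphorylated, was measured at 273, 277, 317 and 350.4 CPM under DMSO and at 222, 238, 234 and 231 CPM under Nutlin-3a. Its change was -0.39 ± 0.059 (SE; adjusted p = 0.00011), with no overlap of the groups, although the DMSO libraries of NTC1 lay below those of NTC2.

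SRSF7, which also takes part in export of mRNA, fell from 185, 217, 185 and 198 CPM to 141, 154, 139.9 and 159.7 CPM, a change of -0.40 ± 0.073 (SE; adjusted p = 0.000572). SRSF11 went from 229, 234, 248 and 278 CPM to 191, 205, 195 and 187 CPM, a change of -0.34 ± 0.059 (SE; adjusted p = 0.000354). TRA2B, a sequence-specific activator of exons that works with SR proteins, went from 341, 368, 377 and 403 CPM to 288, 301.7, 303 and 298 CPM, a change of -0.32 ± 0.048 (SE; adjusted p = 0.000106). In all 3 genes every Nutlin-3a library lay below every DMSO library. Smaller falls were called for SRSF1, SRSF3 and SRSF6, at -0.18, -0.23 and -0.23 (edgeR, adjusted p = 0.0278, 0.014 and 0.0481). These 3 calls were less stable: they were lost in 14, 10 and 14 of the 20 alternatives, and the libraries of SRSF1 and SRSF6 overlapped between treatments. SRSF8, a retrogene copy related to SRSF2, was the member of this class that rose, from 43.0, 41.5, 44.8 and 46.8 CPM to 47.4, 50.8, 51.7 and 48.9 CPM, a change of 0.17 ± 0.049 (SE; adjusted p = 0.0144). Its groups did not overlap, and its call was lost in 7 of 20 alternatives. SRSF5, SRSF9 and TRA2A gave -0.02, -0.15 and -0.00 and did not pass.

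Of the 17 hnRNPs, 5 fell, none rose and 12 did not pass, with a median of -0.06. HNRNPF, which binds runs of guanine near splice sites, fell most of the 49 genes. It was at 385, 423, 388 and 398 CPM under DMSO and at 263, 263, 250.1 and 258 CPM under Nutlin-3a (ENSG00000169813.16, chr10:43385617-43409166, minus strand), a change of -0.62 ± 0.058 (SE; adjusted p = 5.99e-07) that was kept in all 20 alternatives. HNRNPA0, a protein of AU-rich elements as well as of splicing, fell from 234, 247, 251 and 254 CPM to 178, 176, 185 and 174 CPM, a change of -0.47 ± 0.054 (SE; adjusted p = 7.55e-06). The lowest DMSO library of each lay well above its highest Nutlin-3a library. HNRNPDL went from 358, 399, 367 and 402 CPM to 296, 313, 311 and 292 CPM, a change of -0.33 ± 0.054 (SE; adjusted p = 0.000231), and HNRNPR from 582, 530.4, 596 and 619 CPM to 491, 485, 498 and 489 CPM, a change of -0.24 ± 0.044 (SE; adjusted p = 0.000507). HNRNPU, a nuclear scaffold protein, changed by -0.24 ± 0.046 (SE; adjusted p = 0.000975). HNRNPR and HNRNPU each lost the call in 3 of 20 alternatives. The close relatives of HNRNPF did not pass, with -0.07, 0.02 and 0.02 for HNRNPH1, HNRNPH2 and HNRNPH3, and neither did the abundant HNRNPA1, HNRNPC and HNRNPK at 0.01, 0.00 and -0.04. Their 95% intervals were -0.09 to 0.11, -0.07 to 0.08 and -0.12 to 0.05.

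The 3 PTB proteins, repressors of exons that bind pyrimidine tracts, did not move together. PTBP3 (ENSG00000119314.15, chr9:112217716-112333667, minus strand) rose in the NTC lines from 248.9, 203, 292 and 319 CPM to 327, 359, 352 and 319 CPM, a change of 0.37 ± 0.084 (SE; adjusted p = 0.00365). The groups did not overlap but came within 1 CPM of each other in NTC2. The change within NTC2 was 0.14 and that within NTC1 0.61. PTBP1 gave 167, 194, 148 and 142 CPM and 137, 125, 118 and 135 CPM and changed by -0.33 ± 0.11 (SE; adjusted p = 0.0378), a call lost in 10 of 20 alternatives. PTBP2 changed by -0.19 and did not pass (edgeR, adjusted p = 0.119). Of the 8 other regulators 2 fell. TARDBP (TDP-43), which binds UG repeats and represses cryptic exons, fell from 394, 389, 392 and 434 CPM to 329.6, 332, 322 and 326 CPM, a change of -0.30 ± 0.049 (SE; adjusted p = 0.000231). QKI, a regulator of splicing and circular RNA, fell from 196, 167, 225 and 245 CPM to 158, 162, 163 and 152 CPM, a change of -0.38 ± 0.069 (SE; adjusted p = 0.000577), with the lowest DMSO value in harvest 3 of NTC1. Among the 7 factors of the 3′ splice site SF3B2 alone passed, with a fall of -0.29 ± 0.074 (SE; adjusted p = 0.00784), while the other SF3 members SF3A1, SF3B1 and SF3B3 gave -0.04, -0.05 and -0.09.

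**Figure D1:**
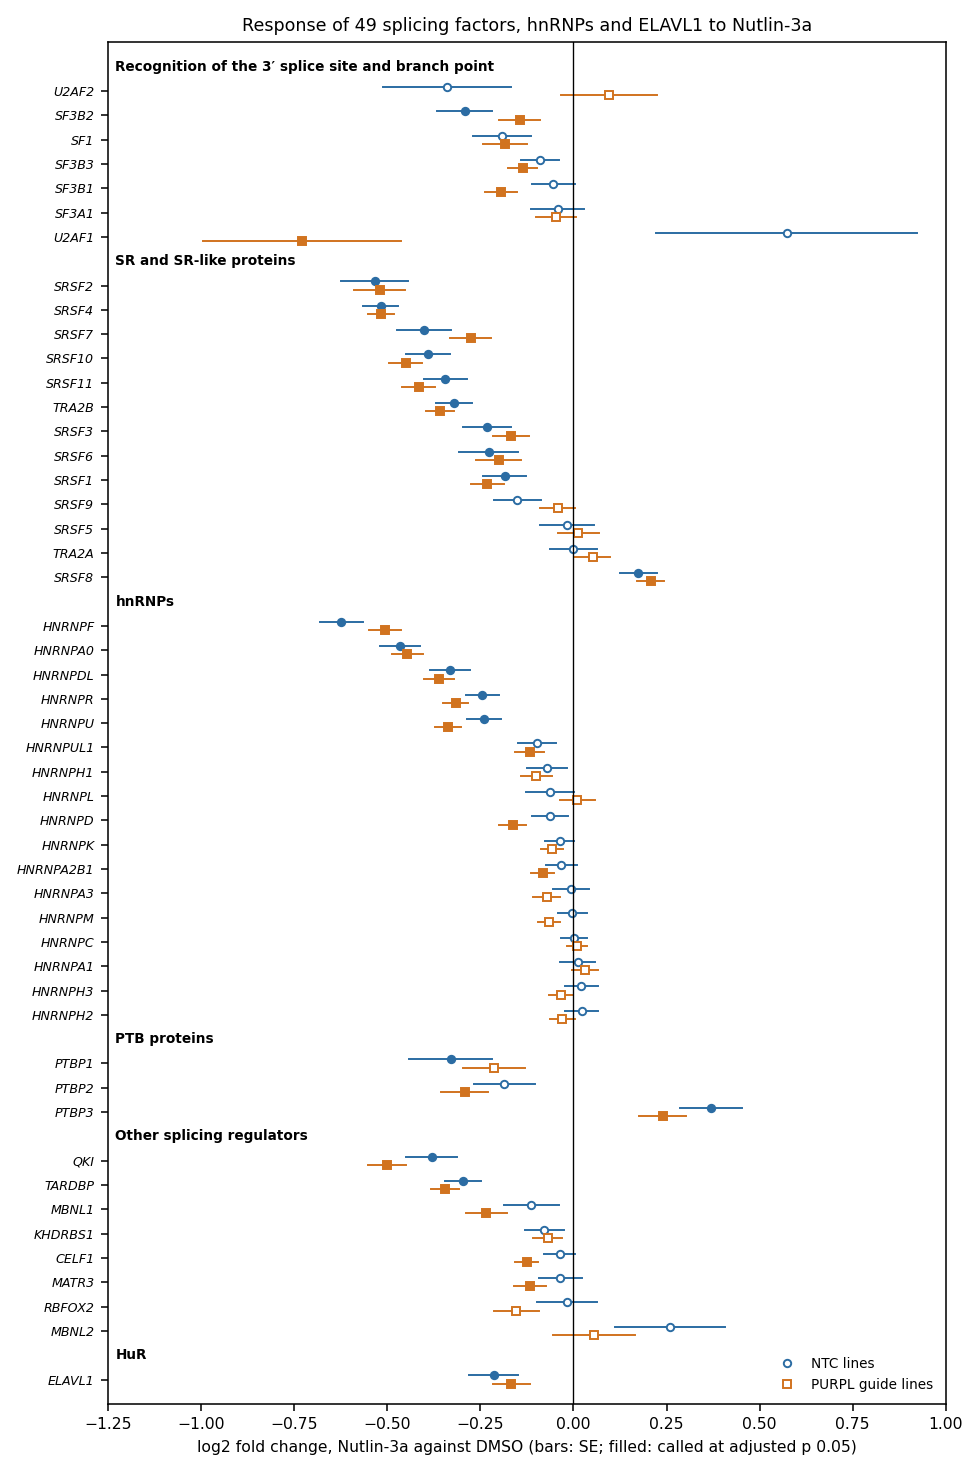
Response of the 49 genes to Nutlin-3a as log2 fold change (x axis) in the NTC lines (blue circles) and in the PURPL guide lines (orange squares), grouped by role and ordered by the NTC value; bars are SE, and filled symbols passed edgeR's test at an adjusted p of 0.05. Most filled symbols lie left of 0, PTBP3 and SRSF8 lie right of it in both sets of lines, and the wide bars of U2AF1 run in opposite directions.

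Of the 18 members that fell under Nutlin-3a in both sets of lines, 15 have a RefSeq promoter entry. The promoter sequences of 5 of these are shown as examples, and the counts of elements below cover all 15. RefSeq (GRCh38.p14) gave windows for 42 of the 49, and each sequence below is the part of the 250 bases before a RefSeq start that also lies before the start of the gene in GENCODE, written 5′ to 3′ on the strand of the gene. Capitals mark letters of an E2F-type element (TTTNNCGC) or of a CHR element (TTTGAA) on either strand. Both elements are known from promoters of cell-cycle genes.
SRSF4 promoter, chr1:29181988-29182150, minus strand: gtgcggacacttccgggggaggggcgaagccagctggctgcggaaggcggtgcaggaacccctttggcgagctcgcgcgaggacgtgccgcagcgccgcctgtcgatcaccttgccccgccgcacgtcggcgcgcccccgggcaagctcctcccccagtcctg
SRSF7 promoter, chr2:38751495-38751744, minus strand: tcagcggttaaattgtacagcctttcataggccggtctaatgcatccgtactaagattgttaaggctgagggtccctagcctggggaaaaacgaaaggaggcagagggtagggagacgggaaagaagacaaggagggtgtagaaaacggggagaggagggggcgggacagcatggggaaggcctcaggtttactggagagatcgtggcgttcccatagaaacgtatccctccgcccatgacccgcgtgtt
HNRNPA0 promoter, chr5:137754377-137754613, minus strand: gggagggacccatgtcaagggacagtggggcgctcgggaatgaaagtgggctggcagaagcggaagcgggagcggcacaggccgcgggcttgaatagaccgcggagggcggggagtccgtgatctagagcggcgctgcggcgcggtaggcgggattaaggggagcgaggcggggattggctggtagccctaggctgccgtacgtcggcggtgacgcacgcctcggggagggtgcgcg
TRA2B promoter, chr3:185938137-185938264, minus strand: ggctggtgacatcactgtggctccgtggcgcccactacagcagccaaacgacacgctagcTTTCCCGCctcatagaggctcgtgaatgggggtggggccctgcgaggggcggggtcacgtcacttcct
SRSF6 promoter, chr20:43457646-43457895, plus strand: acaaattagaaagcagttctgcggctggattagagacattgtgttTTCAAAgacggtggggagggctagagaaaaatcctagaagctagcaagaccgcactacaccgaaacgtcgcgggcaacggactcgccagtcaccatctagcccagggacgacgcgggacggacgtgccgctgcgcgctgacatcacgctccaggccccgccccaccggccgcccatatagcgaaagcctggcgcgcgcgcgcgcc

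TTTNNCGC was present in the 250 bases of 2 of 19 windows of the members that fell in both sets of lines (10.53%; SRSF10 and TRA2B), in 4 of 22 windows of the members that passed in neither (18.2%) and in 5.92% of all 35116 RefSeq windows. TTTGAA was present in 2 of 19 (10.53%; SRSF11 and SRSF6), in 1 of 22 (4.55%; MBNL2) and in 13.3% of all windows. No match says only that these letters are not in the window.

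ELAVL1 (ENSG00000066044.15, chr19:7958579-8005659, minus strand) was slightly lower under Nutlin-3a. In the NTC lines it gave 147, 172, 154 and 151 CPM under DMSO and 132, 139, 133 and 134 CPM under Nutlin-3a, and in the PURPL guide lines 139 to 165 (median 152) CPM and 119 to 142 (median 137) CPM. The NTC groups did not overlap, and the guide-line groups did. The changes were -0.21 ± 0.066 (SE; adjusted p = 0.0239) in the NTC lines and -0.17 ± 0.049 (SE; adjusted p = 0.0132) in the PURPL guide lines by edgeR, and the changes within the 6 lines ran from -0.23 to -0.13. The NTC call was close to the threshold: it was lost in 14 of 20 alternatives, with adjusted p-values from 0.00159 to 0.2 and changes from -0.27 to -0.14, and the guide-line call was lost in 3 of 27. Of 7 related binders of AU-rich elements 5 were measured, and of these ZFP36L1, which promotes decay, rose by 0.20 and KHSRP fell with a change of -0.25 in the NTC lines (edgeR, adjusted p = 0.0416 and 0.0423). The neuronal paralogues ELAVL3 and ELAVL4 did not pass the filter.

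**Figure D2:**
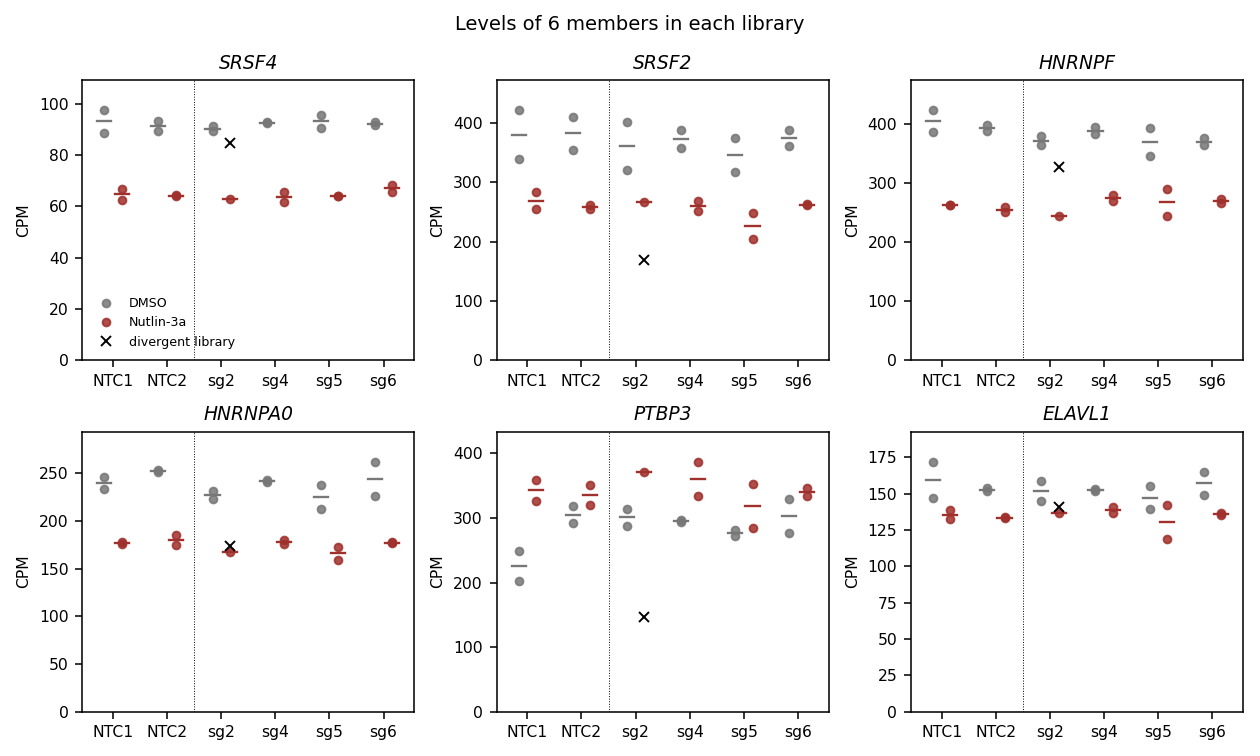
CPM of 6 genes in each library (y axes from 0) for the 2 NTC lines and the 4 PURPL guide lines (x axis, dotted line between them), with DMSO in grey, Nutlin-3a in red, the mean as a bar and the divergent sg2 library as a cross. SRSF4, SRSF2, HNRNPF and HNRNPA0 are lower under Nutlin-3a in every line, PTBP3 is higher with little gap in NTC2, and ELAVL1 is lower by a small step.

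The PURPL guide lines, with 8 libraries under DMSO and 7 under Nutlin-3a against 4 and 4, gave more calls. There 29 of 49 members fell, 2 rose and 18 did not pass, against 22.7% of all genes tested that fell and 15.9% that rose, and 40.1% and 13.3% of the genes at least as high as the lowest member. The median change of the members was -0.15 and that of all genes -0.00. With all 24 libraries 22 fell and none rose, and with the GC trend of each library removed as well 14 fell and 5 rose, while the share of rises among all calls went from 41.2% to 51.7% and 57.3%. Over all genes 3782 falls and 2647 rises became 2707 and 2896 with all 24 libraries, and 3067 and 4118 with the trend removed as well. The 2 sets of lines share no library, but both comparisons came from the same fit, with a shared scaling, filter and spread. In both, 18 members fell: SF3B2, 9 SR and SR-like proteins, HNRNPA0, HNRNPDL, HNRNPF, HNRNPR, HNRNPU, QKI, TARDBP and ELAVL1. The 2 members that rose, PTBP3 and SRSF8, were the same in both, 0 passed in opposite directions, and 17 passed in neither. The shares of all genes that passed in both sets of lines or in neither were not counted. A Nutlin-3a mean below the DMSO mean in each of the 6 lines was found for 28 members and for 22.9% of all genes. The reverse was found for 2 members and 16.7% of genes. These shares are over genes of any level, and genes at the level of the members were not counted apart.

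In these lines SRSF4 lay at 89.5 to 95.6 (median 91.9) CPM under DMSO and 61.7 to 68.3 (median 64.1) CPM under Nutlin-3a, a change of -0.52 ± 0.036 (SE; adjusted p = 6.1e-09) by edgeR. HNRNPF went from 345 to 394 (median 377) CPM to 244 to 290.1 (median 269) CPM, a change of -0.51 ± 0.044 (SE; adjusted p = 8.61e-08). SRSF2 went from 317 to 401 (median 369) CPM to 204 to 269 (median 261) CPM, a change of -0.52 ± 0.069 (SE; adjusted p = 1.23e-05). In each of these 3 genes the groups did not overlap. They were among 20 members that were lower in every Nutlin-3a library, a pattern shown by 13.5% of all genes. The reverse was seen in 1 member, SRSF8, and in 6.17% of genes. Again, genes at the level of the members were not counted apart. QKI went from 206 to 247 (median 217) CPM to 138 to 165 (median 158) CPM, a change of -0.50 ± 0.052 (SE; adjusted p = 7.96e-07). QKI was lower under Nutlin-3a in each of the 6 lines, with changes from -0.58 to -0.18, the smallest in NTC1.

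The other leading members fell in these lines as well. SRSF10 went from 276 to 345 (median 306) CPM to 206 to 239 (median 226) CPM, a change of -0.45 ± 0.045 (SE; adjusted p = 4.78e-07). HNRNPA0 went from 213 to 262 (median 235) CPM to 159 to 179.7 (median 176) CPM, a change of -0.45 ± 0.041 (SE; adjusted p = 1.92e-07). SRSF11 went from 229 to 258 (median 246) CPM to 165 to 191 (median 183) CPM, a change of -0.41 ± 0.044 (SE; adjusted p = 1.14e-06). None of the 3 had a Nutlin-3a library inside its DMSO range, and the changes of HNRNPA0 in the 6 lines ran only from -0.49 to -0.44. HNRNPDL was at 339 to 378 (median 366) CPM and 252 to 303 (median 279.5) CPM, a change of -0.36 ± 0.041 (SE; adjusted p = 2.2e-06). TRA2B was at 342 to 402 (median 364) CPM and 270.4 to 298 (median 288) CPM, a change of -0.36 ± 0.036 (SE; adjusted p = 6.31e-07). TARDBP was at 372 to 424 (median 405) CPM and 284 to 329.7 (median 317) CPM, a change of -0.34 ± 0.037 (SE; adjusted p = 1.04e-06). The calls of HNRNPDL, TRA2B and TARDBP, like those of HNRNPF, QKI, SRSF1, SRSF2, SRSF10 and SRSF11, were kept in all 27 alternatives for these lines. HNRNPR was at 573 to 615 (median 583) CPM and 433 to 486 (median 470.3) CPM, a change of -0.32 ± 0.033 (SE; adjusted p = 7.74e-07). SRSF7 was at 164 to 189.7 (median 184) CPM and 136 to 162 (median 148) CPM, a change of -0.28 ± 0.055 (SE; adjusted p = 0.000668). With the GC trend of each library removed, SRSF3, SRSF6, SRSF7, HNRNPA2B1, MATR3 and U2AF1 were no longer called in these lines. With the trend removed and all 24 libraries, 17 calls were lost, among them SRSF4 (-0.28), HNRNPA0 (-0.15), HNRNPR (-0.12) and HNRNPU (-0.13), with adjusted p-values in edgeR of 0.0569, 0.342, 0.166 and 0.176.

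The smaller falls shared with the NTC lines were -0.34 for HNRNPU, -0.23 for SRSF1, -0.20 for SRSF6, -0.17 for SRSF3 and -0.14 for SF3B2 (edgeR, adjusted p = 7.2e-07, 0.000449, 0.015, 0.0116 and 0.0499). The 2 rises were also seen here. PTBP3 rose from 272 to 330.2 (median 291) CPM to 284 to 387 (median 347) CPM, a change of 0.24 ± 0.063 (SE; adjusted p = 0.00592), with overlap, and SRSF8 from 40.7 to 45.5 (median 42.7) CPM to 47.5 to 53.3 (median 49.4) CPM, a change of 0.21 ± 0.037 (SE; adjusted p = 0.00024), without.

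Another 11 members passed in the PURPL guide lines and not in the NTC lines. These were the branch point and 3′ splice site factors SF1, SF3B1, SF3B3 and U2AF1, the hnRNPs HNRNPA2B1, HNRNPD and HNRNPUL1, and PTBP2, MBNL1, CELF1 and MATR3. SF3B1, the subunit of U2 snRNP that clamps the branch point, changed by -0.19 ± 0.043 (SE; adjusted p = 0.00185) here and by -0.05 in the NTC lines. MBNL1, a regulator of developmental splicing, changed by -0.23 ± 0.056 (SE; adjusted p = 0.003) and by -0.11 in the NTC lines. In both genes NTC2 moved down with the PURPL guide lines, by -0.17 and -0.29, whereas NTC1 gave 0.07 for each. The remaining changes were -0.29 for PTBP2, -0.18 for SF1, which binds the branch point, -0.16 for HNRNPD (AUF1), -0.14 for SF3B3, -0.13 for CELF1, -0.12 for HNRNPUL1, -0.12 for MATR3 and -0.08 for HNRNPA2B1, with adjusted p-values in edgeR from 0.0013 to 0.0465. The difference between the responses was tested below and passed for none of the 11. Calls for HNRNPA2B1, HNRNPUL1, MATR3, SF3B2 and U2AF1 in these lines were lost in 11 to 22 of 27 alternatives, and PTBP1, called in the NTC lines alone, gave -0.21 (edgeR, adjusted p = 0.0529).

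U2AF1, which reads the AG of the 3′ splice site, needs its own account, because a near-identical copy, U2AF1L5, has a row of its own. Reads that match both are split by the counting, and the share of the 2 rows that U2AF1 received ran from 4.69% to 92.7% over the 24 libraries. In CPM, U2AF1 gave 45.4, 34.8, 104 and 104 under DMSO and 106, 98.8, 102 and 78.5 under Nutlin-3a in the NTC lines, with the low values in NTC1 under DMSO. Taken alone it changed by 0.57 ± 0.35 (SE; adjusted p = 0.267) there and by -0.73 ± 0.27 (SE; adjusted p = 0.0426) in the PURPL guide lines. Summed over both rows, the changes were -0.15 and -0.12 (edgeR, adjusted p = 0.137 and 0.0822), neither past the threshold. The split moved with the GC slope of the library. In the 6 libraries with a slope above 0.05 log2 units per 10 points of GC, a bound set after the values were seen, U2AF1 held 4.69% to 34.5% of the pair, and in the other 18 libraries 52.7% to 92.7%. The part of the GC slope in the split was not tested further. The call of U2AF1 is counted among the 29 falls above and was lost with the copies summed.

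**Figure D3:**
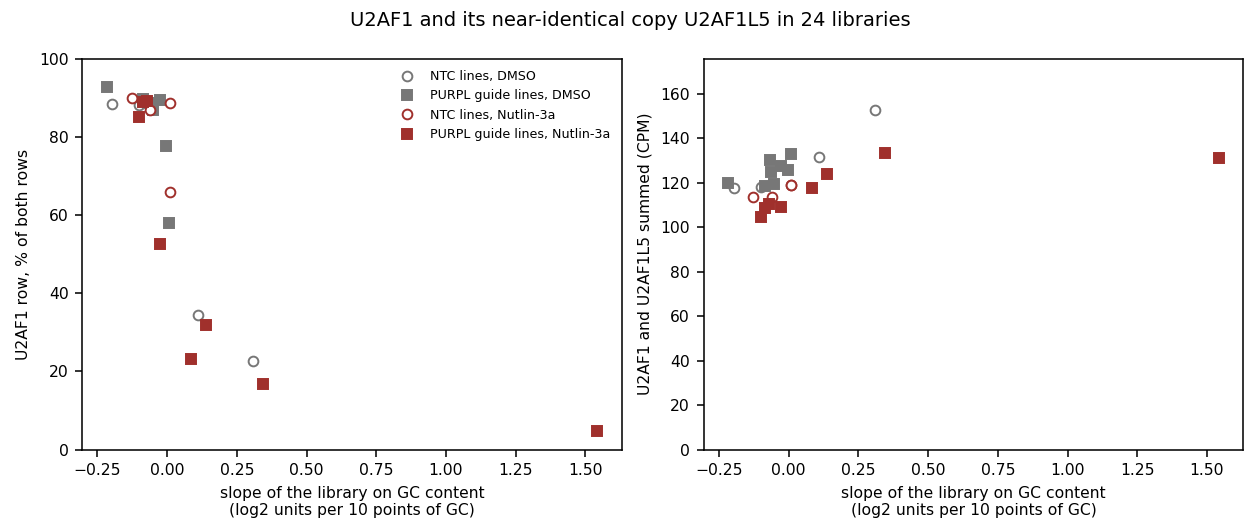
Share of the U2AF1 row in the counts of U2AF1 and U2AF1L5 (left, percent) and their summed CPM (right) against the GC slope of each of the 24 libraries (x axis, log2 units per 10 points of GC). Shares lie at 52.7% or more in the 18 libraries with a slope up to 0.05 and at 34.5% or less in the other 6, and the sums lie between 105 and 153 CPM.

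MATR3, a nuclear matrix protein that binds RNA, also has a second row, which holds 8.49% of its counts, and with both rows summed the call in the PURPL guide lines was lost (-0.12, edgeR, adjusted p = 0.0574). For HNRNPA1 the row itself held 99.2% of the counts of its family of copies, and HNRNPA3, HNRNPC and HNRNPK more than that, so their values change little. U2AF2, the partner of U2AF1, did not pass in either set of lines, with -0.34 and 0.09, but it too varied between libraries, from 57.7 to 110.4 CPM in the NTC lines under DMSO.

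PURPL guides did not change any member past the threshold. In DMSO, in Nutlin-3a and in the difference of the responses, 0 of 49 passed edgeR's test on the sums of each line, 4 lines against 2, where 0.00601%, 0.00596% and 0.0% of all genes passed. The single called gene in DMSO and in Nutlin-3a was PURPL. At an unadjusted p under 0.05 there were 1, 2 and 2 members. Over all genes 528 of 16648, 799 of 16768 and 994 of 17106 had such a p. DESeq2 called no member in these comparisons. The 95% interval of the change lay within 1.5-fold for 47, 48 and 47 of the 49 genes, and those outside were U2AF1 in each and U2AF2 in the first and the last. Leaving U2AF1 out, estimates ran from -0.29 to 0.26 in DMSO and from -0.13 to 0.18 in Nutlin-3a.

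ELAVL1 differed by -0.04 (95% interval -0.18 to 0.10) in DMSO and by -0.00 (-0.10 to 0.09) in Nutlin-3a, and its responses differed by 0.03 (-0.14 to 0.19). On the means of the 6 lines an exact two-sided permutation test gave p = 0.333 and 0.867, where the smallest p that the 15 splits allow is 0.0667. The smallest p-values, picked after they were seen, belonged to RBFOX2, a regulator that binds GCAUG, in DMSO (0.19, 0.01 to 0.37), and to HNRNPH3 and HNRNPH1 in Nutlin-3a (-0.10 and -0.10), with adjusted p-values of 0.825 and 0.828 in edgeR. U2AF1 and U2AF2 had the smallest p in the difference of responses, at -1.33 and 0.41, and neither passed (edgeR, adjusted p = 0.613).

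When lines were left out in turn, members passed in DMSO only without the second control line. Without NTC2, which leaves NTC1 as the lone control and assumes that it varies like the PURPL guide lines, 9 members rose and 8 fell in DMSO. They included PTBP3 at 0.40, MBNL2 at 0.54, QKI at 0.29, PTBP1 at -0.24 and U2AF2 at -0.59, and over all 17167 genes 3075 were higher and 3249 lower in place of 1 lower. In the difference of responses 1 member rose and 4 fell, and over all 17594 genes 1488 rose and 1449 fell, a larger share than among the members. Without NTC2 no member passed in Nutlin-3a, and without NTC1 no member passed in any of the 3 comparisons. In DMSO without NTC2 the share of members called was no larger than that of all genes. Harvest 3 of NTC1 in DMSO had the second-highest GC slope of the other 23 libraries, 0.31, and both DMSO libraries of NTC1 were among the 6 with a slope above 0.05. GC content was 37.7% for PTBP3, 37.6% for MBNL2 and 40.7% for QKI, and 59.5% for PTBP1 and 61.3% for U2AF2. The part of GC content in these differences was not tested.

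**Figure D4:**
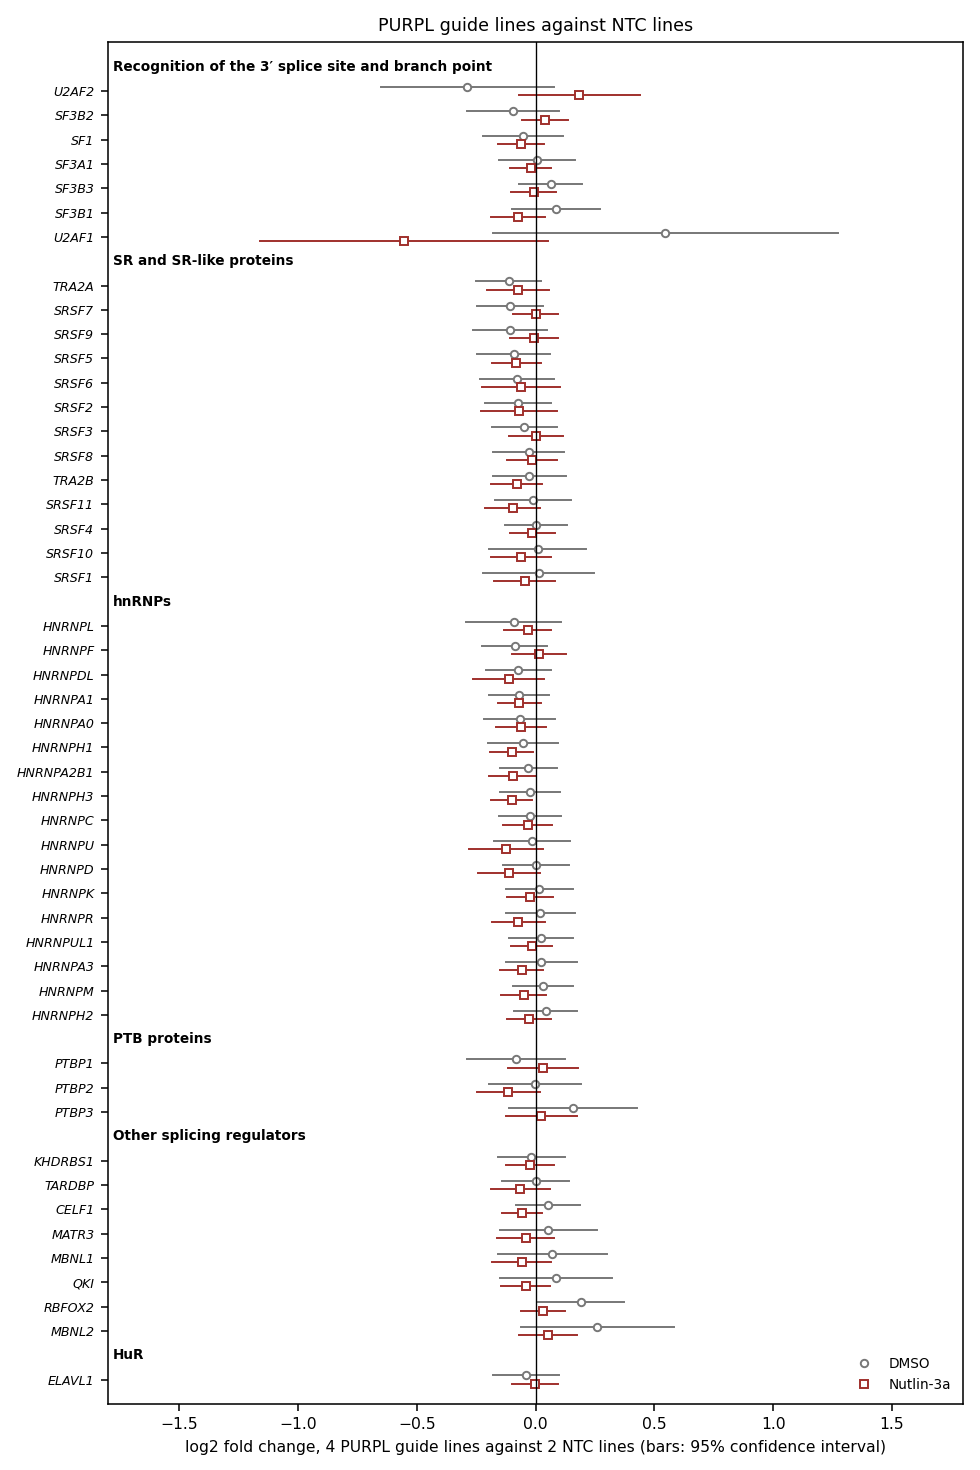
Difference between the 4 PURPL guide lines and the 2 NTC lines as log2 fold change (x axis) for the 49 genes, in DMSO (grey circles) and in Nutlin-3a (red squares), with 95% confidence intervals. No symbol is filled, since none passed, and the intervals of U2AF1 are the widest.

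No member differed among the 6 lines past the threshold. Of the 49 genes 0 passed edgeR's test of any difference among the lines in DMSO or in Nutlin-3a. Over all genes 0.0659% and 0.0599% did. An unadjusted p under 0.05 was found for 6 and 1 of the 49 and for 2158 and 665 of all 16697 genes. DESeq2 called 0 of the 49 in either treatment. By that p, SRSF1 came first in DMSO and HNRNPU in Nutlin-3a (edgeR, adjusted p = 0.381 and 1). The largest difference between 2 lines had a median over members of 0.16 log2 units in DMSO and 0.13 in Nutlin-3a, against 0.41 and 0.31 over all genes tested. All genes include many of far lower level than any member, and with a filter at 1 CPM these medians were 0.32 and 0.22. Genes at the level of the members were not compared.

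Other splicing genes came from lists that hold none of the 49. Their counts stand against the 15.9% of all genes tested that fell in the NTC lines and the 22.7% in the PURPL guide lines, or 24.3% and 40.1% of the genes at least as high as the lowest member, and all genes too fell more often than they rose. Of 46 core spliceosome genes 13 fell and 1 rose in the NTC lines, and 15 fell and 3 rose in the PURPL guide lines, with medians of -0.16 and -0.02. PRPF4, a protein of the tri-snRNP, changed by -0.59 and -0.61 in the 2 sets of lines, SNRNP40 by -0.45 and -0.44 and PRPF3, another tri-snRNP protein, by -0.36 and -0.41, while SF3A3 rose by 0.13 and 0.12. Of 8 kinases that phosphorylate SR proteins or act beside them 3 fell and none rose in the NTC lines, and 4 fell and 1 rose in the PURPL guide lines: PRPF4B changed by -0.44 and -0.63, SRPK1 by -0.39 and -0.54 and DYRK1A by -0.20 and -0.30. Of 33 other hnRNP-like proteins and regulators 13 fell and 1 rose, and 21 fell and 1 rose, with PNN at -0.48 and -0.57, RBM17 at -0.35 and -0.36 and HNRNPAB at -0.54 and -0.49. NOVA2, a neuronal regulator, was the one that rose in the NTC lines, by 0.86 ± 0.30 (SE). Of 15 genes of nonsense-mediated decay and the exon junction complex 2 fell and 1 rose, and 5 fell and 2 rose: UPF3B changed by -0.34 and -0.46, EIF4A3 by -0.38 and -0.30 and the endonuclease SMG6 by 0.28 and 0.36. None of these genes passed between PURPL guide lines and NTC lines.

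The annotation gives further features of the members that played no part in choosing them. GENCODE lists a transcript subject to nonsense-mediated decay for 35 of 49 members (71.4%), for 14 of the 18 that fell in both sets of lines and for 12 of the 17 that passed in neither, against 34.2% of all genes tested. The members all code for proteins, whereas the genes tested include noncoding genes and genes of lower level. Protein-coding genes of like level were not counted apart. Median GC content of the transcripts was 42.2% in the members that fell in both, 44.5% in those that passed in neither and 48.2% in all genes tested.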

How the data were processed

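The authors deposited a table of estimated counts per gene, made with RSEM per the submitters' processing notes, for 24 libraries of polyadenylated RNA, made with a strand-marking kit per the labels' protocols. The submitters' processing notes name cutadapt, STAR, RSEM, DESeq2 and hg38, with versions not given in the sources used here. Values were rounded to whole numbers (5.6% to 7.16% of values per library were not whole), 45 rows of the Y copies of pseudoautosomal genes (0.0222% of counts) were added to their X copies, and 58825 genes remained. Counting error is small at 66.4 M to 92.1 M counts per library, and spread between libraries sets the precision.

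Tests were edgeR's quasi-likelihood test (edgeR 4.0.16, R 4.3.3, limma 3.58.1) with TMM normalisation, a minimum count of 10 in filterByExpr and Benjamini-Hochberg adjustment over all genes tested, called at an adjusted p of 0.05. Nutlin-3a comparisons used 12 group means over 23 libraries (11 residual degrees of freedom). Comparisons of PURPL guide lines with NTC lines used counts summed per line and treatment. The response of 1 line was the difference of mean log2(CPM + 0.5). Alternatives were all 24 libraries, RLE size factors, DESeq2 1.42.0, other low-count filters (none, or 1 CPM in 2 libraries), removal of each library's GC trend (lowess, span 0.3, GC known for 99.73% of the genes tested), summed copies, blocks, other units of summing, and leaving out libraries or lines.

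Gene IDs were matched to GENCODE 29 (58552 IDs found without version) and promoters to RefSeq. SF3B3, SRSF2, TRA2A, HNRNPA1, RBFOX2, QKI and ELAVL1 had no promoter entry. On simulated counts for 16348 genes changes of 1.25-fold were called for 19.1% of altered genes in the NTC comparison and 25.5% in the PURPL guide lines, and changes of 1.5-fold for 55.1% and 73.5%. For the DMSO comparison between lines, on 16439 genes, these shares were 24% and 62.5%. The altered genes were drawn from all levels and were far fewer than the genes called under Nutlin-3a. These shares are therefore not those of the members, which are of higher level than many genes tested. The simulated lines differed only by the spread between harvests. The shares for the comparison between lines therefore leave out real differences between lines and can be too high. Members and gene lists were chosen with earlier results of these data known. Named with values in each library were ELAVL1 and the 12 called genes of smallest p in the NTC comparison, with the extremes of level, genes with copies, and of each other list the 3 called genes of smallest p in each direction. Other members were named after their values were seen. PURPL, CDKN1A and MDM2 served to check labels and treatment.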

Additional observations from a re-analysis of the deposited data

Results flagged for a closer look

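Among 196 groups of 4 to 8 libraries, 1 gene and 1 group each, 14 had a single library far from the rest by Dixon's test at the 95% level, where chance flags about 1 in 20 groups. In sg5 under Nutlin-3a, harvest 3, SRSF11 at 164.7 CPM, PTBP2 at 30.04 CPM and KHDRBS1 at 375.3 CPM were lowest of 7 and PTBP1 at 179.9 CPM was highest. In sg5 under Nutlin-3a, harvest 1, SRSF2 at 203.9 CPM and ELAVL1 at 118.6 CPM were lowest of 7. In sg5 under DMSO, U2AF1 at 77.1 CPM (harvest 3) and SF3B3 at 568.8 CPM (harvest 1) were lowest of 8. In NTC1 under DMSO, harvest 3, SRSF9 at 250.2 CPM was highest of 4, and RBFOX2 at 154.2 CPM and CELF1 at 191.4 CPM were lowest. TRA2B at 402 CPM was highest of 8 in sg6 under DMSO, harvest 1, TARDBP at 434.2 CPM highest of 4 in NTC2 under DMSO, harvest 3, and MATR3 at 1074 CPM highest of 4 in NTC2 under Nutlin-3a, harvest 1. The GC slope of sg5 under Nutlin-3a, harvest 3, was 0.35 and that of NTC1 under DMSO, harvest 3, 0.31, the highest of the 23 libraries in the main analysis, and their part in these values was not tested.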

How the results depend on the processing

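In the NTC lines the 19 falls became 5 with all 24 libraries and 11 with the GC trend removed and all 24, and ran from 14 to 19 when 1 library was left out. Over all genes the 2655 falls became 659 and 2209, and ran from 1987 to 2790. The 2 rises became 0 with all 24 libraries, 1 with the GC trend removed, with 23 or 24 libraries, and 1 to 2 when 1 library was left out. Over all genes the 1482 rises became 685 with all 24 libraries, and 1735 and 1507 with the GC trend removed. They ran from 1102 to 2004 when 1 library was left out. The added library is not in this comparison and enters it only through the shared scaling, filter and spread. In the PURPL guide lines the 29 falls became 19 with a filter at 1 CPM and 14 with the GC trend removed and all 24, and the 2 rises became 0 with all 24, 5 at 1 CPM and 5 with the GC trend removed and all 24. Over all genes 2727 of 12521 fell at 1 CPM and 3365 rose. With the GC trend removed and all 24 libraries 3067 of 16371 fell and 4118 rose. Of 837 values of called members in these lines under alternatives 714 kept direction and call, 119 lost the call and 4 changed sign: SF3B2 (0.048) and HNRNPUL1 (0.039) with all 24 libraries, HNRNPA2B1 (0.13) and MATR3 (0.026) with the GC trend removed and all 24. The cause was not tested. Of 420 such values in the NTC lines 335 kept the call, 85 lost it and 0 changed sign.

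Between PURPL guide lines and NTC lines, leaving out 1 line gave 0 to 9 rises and 0 to 8 falls in DMSO, the highest without NTC2, where PTBP2 changed sign to 0.15, against -0.13 without NTC1. In the difference of responses it gave 0 to 1 rises and 0 to 4 falls, and harvest 1 alone (without replicate 3) gave 1 rise and 5 falls, where 1479 of all 15742 genes rose and 638 fell. Over all genes, calls in DMSO were 1 in edgeR and 11 in DESeq2, and in Nutlin-3a 1 and 19. Among the 6 lines, 4 members passed in DMSO and 2 in Nutlin-3a without a low-count filter, as did 2692 and 708 of all 29226 genes.

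The harvest numbers 1 and 3 recur in every group, but deviations of same-numbered harvests correlated over 0.1 in 3 of 6 lines only, with r from 0.0158 to 0.318. With the replicate block, by harvest number or by line and harvest, 20 members fell and 2 rose in the NTC lines, and 32 fell and 2 rose in the PURPL guide lines. Over all genes 2906 and 3274 fell and 1651 and 1904 rose in the NTC lines under these blocks, against 2655 and 1482 in the main analysis. Between PURPL guide lines and NTC lines only the block by harvest number was fitted, and 0 members passed. That fit took the harvests of a line as separate replicates, since libraries were not summed. In the PURPL guide lines 3940 and 4251 of all genes fell under the 2 blocks and 2784 and 3405 rose, against 3782 and 2647.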
